A study of Mus musculus with 12 samples.

Results

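The genes described here encode zinc finger proteins that carry a numbered Zfp name in the mouse. They were chosen by name, as Zfp followed by digits only and without Zfp36, and by level, as a mean of 5 or more CPM (the gene's summed transcript estimates divided by the library total in M, where M is 1000000) over all 12 libraries. Of 372 genes with such a name, 182 passed and are called members below, out of 33615 gene symbols in the table and 8275 symbols at the same mean level. The remaining 190 lay below that level, 1 of them at 0 in every library. The level was taken over all groups together, so this limit used no contrast between groups. The series itself was chosen with earlier results of these data known. Zfp873 (5.02 CPM) and Zfp821 (5.14 CPM) stood just above the limit while Zfp935 (4.99 CPM) and Zfp790 (4.83 CPM) stood just below it.

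Gene expression was measured by RNA sequencing of frozen mouse heart tissue in 3 groups of 4 libraries. Sham hearts had the operation without ischemia and are labelled with the 2 h time point, and the I/R hearts had 30 min of ischemia followed by 2 h of reperfusion. The third group, I/R + ML264, had the same injury with ML264 (given below as values "with ML264"), a small molecule given in this study to inhibit the transcription factor KLF5, itself a zinc finger protein outside the Zfp series. The labels give no strain, sex, age, dose, vehicle or time of treatment, and name no control group of uninjured hearts with ML264. Nothing in them ties the libraries to separate animals, so the spread behind each p-value is that between these libraries and may in part be technical.

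Library totals were 22.26 to 29.93 M estimated counts, and members took 0.452% to 0.472% of the counts in Sham, 0.365% to 0.418% after I/R, and 0.427% to 0.489% with ML264. Some libraries stood apart. Y-linked transcripts were read in all 4 Sham libraries but in 2 of 4 libraries in each injured group. Arntl, a core clock gene, was high in library 1 of I/R and libraries 2 and 3 of Sham (log2 CPM 3.39 to 3.95) and low in the others (0.20 to 1.75). I/R + ML264 library 2 had the lowest weight of all libraries in a voom fit (0.57). Defining markers of cardiomyocytes summed to 21858 to 25449 CPM in Sham and 23965 to 27139 CPM in I/R. Of 3 atrial markers, Sln was at 0 in every library, but the list was not silent. It summed to 5.47 to 15.04 CPM in Sham, 4.94 to 21.11 CPM in I/R and 6.49 to 21.69 CPM with ML264. Of 3 lung markers, Sftpc was at 0 in every library, and the list summed to at most 0.16 CPM.

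Most genes of the Zfp series encode proteins with tandem C2H2 fingers, in which paired cysteines and histidines hold a zinc ion and neighbouring fingers each read a few bases of DNA. A large share of them also carry a KRAB domain, which binds the corepressor TRIM28 (KAP1). TRIM28 in turn recruits the histone methyltransferase SETDB1 and heterochromatin proteins, and the best-known targets of this system are retrotransposons and imprinted loci. KRAB zinc finger genes lie in clusters formed by repeated gene duplication, so that neighbours often share sequence. In the adult heart the roles of most of them are not established.

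In the coding sequences of the members, a KRAB box pattern was found for 97 genes and not found for 85. The number of finger patterns (2 cysteines 2 to 4 residues apart, then 12 residues to 2 histidines 3 to 5 residues apart) had a median of 12 in genes with the KRAB pattern and 8.0 in genes without it. The most fingers were counted in Zfp142 (36), and 2 members, Zfp330 and Zfp839, held none. Reads that fit several transcripts are divided among them by kallisto, and 25 members share over 25% of their 31-base words with transcripts of other genes; values of these are uncertain. Exons of 48 members overlap a gene on the opposite strand. The library kit does not mark strand, so reads within the overlapping stretch cannot be told apart.

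6 promoters are shown, those of the 2 members that rose after I/R and of 4 that fell. The 4 were picked by hand, are not the 4 with the smallest adjusted p, and do not stand for all members that fell. Each is the 250 bases before the gene's start, 5′ to 3′ on the gene's strand, from RefSeq on GRCm38.p6, with matches to any of 7 short motifs in capitals. Zfp655 (plus strand, chr5:145231492-145231741) holds a CACCC box, a GC box and an ETS site, and Zfp689 (minus strand, chr7:127449159-127449408) holds none of the 7. Zfp979 (minus strand, chr4:147642509-147642758) holds a GC box, Zfp606 (plus strand, chr7:12478055-12478304) a GC box, an ETS site and a ZNF143 core, Zfp60 (plus strand, chr7:27731159-27731408) overlapping CACCC boxes and an ETS site, and Zfp426 (minus strand, chr9:20492747-20492996) a GC box and a cyclic AMP response element.
Zfp655: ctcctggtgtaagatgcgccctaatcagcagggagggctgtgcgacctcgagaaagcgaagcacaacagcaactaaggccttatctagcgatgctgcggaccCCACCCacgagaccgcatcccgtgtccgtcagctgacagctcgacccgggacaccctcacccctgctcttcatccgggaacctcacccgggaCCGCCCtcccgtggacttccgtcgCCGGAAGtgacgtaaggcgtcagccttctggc
Zfp689: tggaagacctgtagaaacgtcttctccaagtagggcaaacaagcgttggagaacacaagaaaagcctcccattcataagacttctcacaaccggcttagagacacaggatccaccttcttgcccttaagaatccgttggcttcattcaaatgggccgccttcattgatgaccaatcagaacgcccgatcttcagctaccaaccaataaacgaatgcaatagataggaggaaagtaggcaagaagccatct
Zfp979: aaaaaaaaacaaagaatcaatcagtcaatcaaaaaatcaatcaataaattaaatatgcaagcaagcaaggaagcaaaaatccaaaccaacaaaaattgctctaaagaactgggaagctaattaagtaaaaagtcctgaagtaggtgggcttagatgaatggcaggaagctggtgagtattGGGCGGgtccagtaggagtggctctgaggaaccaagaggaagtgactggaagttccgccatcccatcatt
Zfp606: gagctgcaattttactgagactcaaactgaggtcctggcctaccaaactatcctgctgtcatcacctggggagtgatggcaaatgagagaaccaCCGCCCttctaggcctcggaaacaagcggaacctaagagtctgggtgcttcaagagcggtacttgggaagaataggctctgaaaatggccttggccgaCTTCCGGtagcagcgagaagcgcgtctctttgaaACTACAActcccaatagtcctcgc
Zfp60: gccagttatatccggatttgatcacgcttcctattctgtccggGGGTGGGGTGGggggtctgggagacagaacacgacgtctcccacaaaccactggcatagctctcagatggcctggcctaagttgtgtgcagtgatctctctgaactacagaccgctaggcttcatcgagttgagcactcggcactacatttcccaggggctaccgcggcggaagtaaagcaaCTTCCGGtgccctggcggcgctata
Zfp426: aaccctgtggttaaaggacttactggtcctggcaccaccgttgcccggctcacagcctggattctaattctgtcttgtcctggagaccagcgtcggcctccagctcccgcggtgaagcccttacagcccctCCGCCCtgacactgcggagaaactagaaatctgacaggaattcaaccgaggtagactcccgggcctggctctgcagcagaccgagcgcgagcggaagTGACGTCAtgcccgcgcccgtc

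The motifs were searched on both strands of the 300 bases from 250 before to 50 after each start, in the 150 members that RefSeq's promoter table holds and in all 27025 genes of that table. ETS sites (CCGGAAG) were found in 24.0% of members and in 34.6% of the members that fell (9 of 26). They were found in 9.93% of all genes and in 17.3% of the genes tested here. Shares of the genes tested are over the 11449 of them with a promoter in that source, without the members' level limit. GC boxes (GGGCGG) were found in 51.3% of members, 40.7% of those with the KRAB pattern and 65.6% of those without it, against 38.2% of all genes and 62.5% of the genes tested. The CACCC box (CCACCC), a sequence that Krüppel-like factors can bind, was found in 36% of members, 34.0% of all genes and 39.8% of the genes tested. Cores of ZNF143 sites (ACTACAA) were present in 7.33% of members, 3.78% of all genes and 4.51% of the genes tested, and cyclic AMP response elements (TGACGTCA) in 4.67%, 2.03% and 3.25%. AP-1 sites (TGANTCA) were present in 5.33%, 8.97% and 6.82% of these sets, and TATA boxes (TATAAA) in 7.33%, 15.7% and 10.8%. Among the members that fell, GC boxes were found in 42.3%, CACCC boxes in 34.6% and ZNF143 cores in 11.5%. Cyclic AMP response elements were found in 7.69% of them, AP-1 sites in 0% and TATA boxes in 3.85%. GC boxes and CACCC boxes can overlap in G-rich runs. These are counts of letters in a window and show no binding.

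Levels between genes were compared per length, in TPM, which divides each estimate by its transcript's length and scales each library to a total of 1 M. Zfp106, an RNA-binding protein needed for skeletal muscle and its motor neurons, was far above all other members at a mean of 1191 TPM. The next were Zfp445 at 83.9 TPM, Zfp638 at 81.6 TPM, Zfp644 at 78.2 TPM and Zfp871 at 60.5 TPM. Zfp445 keeps imprinted loci methylated, Zfp638 takes part in splicing and in silencing of retroviral DNA, and Zfp644 works with the histone methyltransferase G9a. None of these abundant members was called in any comparison. In CPM, Zfp106 stood at 1109.7 ± 77.0 in Sham, 1109.8 ± 23.3 after I/R and 1254 ± 228 with ML264 (SD, n = 4), where library 2 had 1566 and the others 1018 to 1232. Zfp106 shares 25.8% of its words, mainly with the antisense gene Gm26899, and is therefore uncertain by the limit above. By mean CPM, the members next to Zfp106 were Zfp871 (142.8), Zfp644 (110.0), Zfp292 (96.8), Zfp652 (89.3) and Zfp445 (84.4).

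I/R hearts were first set against Sham hearts, to read the effect of the injury. After I/R, 31 of the 182 members (17.0%) fell and 2 rose, in edgeR's quasi-likelihood test with Benjamini-Hochberg adjusted p under 0.05. Over the 8275 genes at the same mean level, 3.88% fell and 6.2% rose. The median log2 fold change was -0.21 over the members, with 132 below 0 and 50 above, against 0.01 over those 8275 genes. In 54 members (29.7%) the 4 I/R libraries all lay below the 4 Sham libraries, and in 5 they all lay above, where the 8275 genes gave 8.33% and 11.1%. In bulk tissue, fewer cells of a type and less RNA per cell cannot be told apart.

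**Figure D1:**
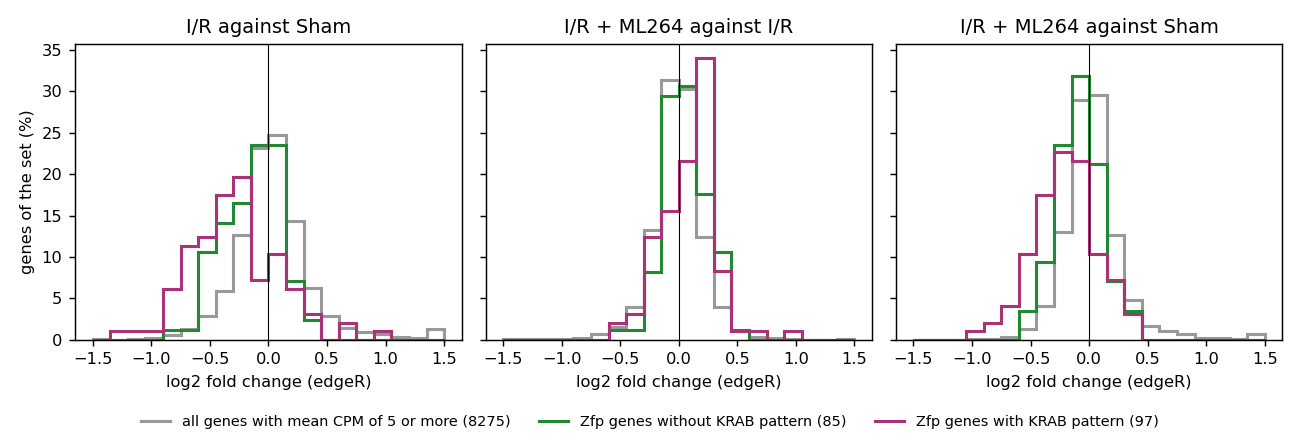
Log2 fold changes from edgeR (x axis, values beyond 1.5 collected in the end bins) as a percent of each set (y axis) for the 97 Zfp genes with a KRAB pattern, the 85 without it and all 8275 genes with a mean of 5 CPM or more, in the 3 comparisons. In I/R against Sham the KRAB genes lie to the left, with a median of -0.30 against -0.10 for the other Zfp genes and 0.01 for all genes.

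How many members pass depends on libraries and covariates that move with the injury. With the Y-linked transcripts as a covariate 8 members fell (1.08% of all genes at that level), with the level of Arntl as a covariate 13 (2.1%), and in the 8 libraries with Y-linked transcripts, with 2 libraries in each injured group, 13 (1.32%). The members' median log2 fold change in these fits was -0.18, -0.19 and -0.17. Leaving out 1 library gave 14 to 44 members lower. The lowest counts came without Sham library 4 (14), Sham library 3 (15), I/R library 4 (15), Sham library 2 (18) and I/R library 1 (19), and over all genes the share that fell was then 1.95% to 2.62%. Of the 31, 11 were called in all 12 of these fits. The part of Y-linked transcripts and of Arntl in the result was not tested further.

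Summing the transcripts annotated as protein-coding alone left no member called in either direction, and 4 of the 8039 genes at that level called higher and none lower. The coefficient of variation between libraries was 0.888 in that fit and 0.205 with all transcripts, while the members' median was -0.29. Members whose counts were all on protein-coding transcripts, among them Zfp655, Zfp759 and Zfp992, also lost their calls there.

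Members with the KRAB pattern made up 24 of the 31 that fell and both that rose. Of all 97 KRAB members, 24 fell (24.7%), the median log2 fold change was -0.30, and in 39 (40.2%) the I/R libraries lay entirely below Sham. Of the 85 members without the pattern, 7 fell (8.24%), the median was -0.10, and in 15 (17.6%) the I/R libraries lay entirely below Sham. Split by level, the counts were as follows. Under 10 CPM, 12 of 49 KRAB members fell (median -0.37) and 2 of 29 others (-0.19), and at 10 CPM or more, 12 of 48 (-0.28) and 5 of 56 (-0.07). Among KRAB members with at most 25% shared words, 17 of 78 fell, with a median of -0.28.

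Each library can also be described by its mean centred log2 level, the mean over members of log2 CPM minus the gene's own mean over the 12 libraries. For the KRAB members this was 0.11, 0.20, 0.20 and 0.16 in Sham libraries 1 to 4, and -0.14, -0.07, -0.08 and -0.17 in I/R. In I/R + ML264 it was -0.00, -0.27, 0.09 and -0.03. Sham and I/R did not overlap, 3 treated libraries lay between them, and library 2 was the lowest of all 12. Members without the pattern ranged from 0.06 to 0.10 in Sham, -0.14 to -0.03 after I/R, and from -0.10 to 0.04 with ML264. All genes at that level stayed within -0.04 and 0.04.

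**Figure D2:**
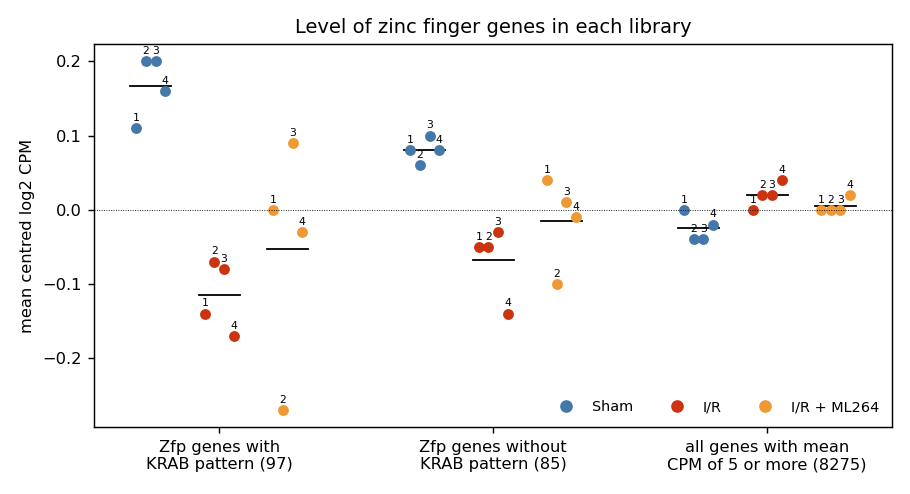
Mean centred log2 CPM of each library (y axis, points numbered by library, lines for group means) for Zfp genes with and without a KRAB pattern and for all genes with a mean of 5 CPM or more. The 4 I/R libraries lie below the 4 Sham libraries in both Zfp sets, and I/R + ML264 library 2 lies lowest among the KRAB genes at -0.27.

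The members that fell included genes on 13 chromosomes, and their mean level ran from 5.02 to 35.6 CPM. Their log2 fold changes ran from -1.29 to -0.32, with a median of -0.61. I/R lay entirely below Sham in 28 of the 31, which the choice of these genes by this same contrast favours. The exceptions were Zfp369, Zfp608 and Zfp976. Over 25% of words were shared in 8 of them, and 6 overlap an antisense gene. The 10 with the smallest adjusted p are given next by library.

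Zfp979, a KRAB gene of the chromosome 4 cluster (147611937 to 147642513, minus strand, GRCm38), had 13.0, 18.2, 22.1 and 14.4 CPM in the Sham libraries, 7.18, 8.10, 5.43 and 6.96 after I/R and 9.01, 10.5, 8.92 and 11.2 with ML264. All I/R libraries were below all others, and the treated libraries lay between the groups without overlap with either. The log2 fold change for I/R against Sham was -1.29 ± 0.17 (SE), the lowest of all members, with edgeR adjusted p = 0.000381. It shares 32.4% of its words with other genes, mainly Zfp600, and is uncertain for that reason. Zfp992, in the same region (146449023 to 146470292, plus strand), had 7.78, 7.53, 8.86 and 9.94 CPM in the Sham libraries, 3.08, 3.66, 5.15 and 3.44 after I/R and 7.17, 6.75, 6.19 and 4.45 with ML264. Its log2 fold change was -1.16 ± 0.18 (SE) with edgeR adjusted p = 0.00178, and it shares 49.9% of its words, mainly with its neighbour Zfp991. In neither gene did Sham and I/R overlap.

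Zfp759, a KRAB gene with 19 finger patterns on chromosome 13 (67121660 to 67141787, plus strand), shares 4.46% of its words with other genes. It had 7.74, 6.99, 9.83 and 8.39 CPM in the Sham libraries, 3.63, 4.91, 5.15 and 3.63 in I/R, and 8.23, 7.17, 9.23 and 7.76 in I/R + ML264. The treated libraries overlapped Sham throughout and lay above every I/R library. It had a log2 fold change of -0.93 ± 0.16 (SE) in I/R against Sham, with edgeR adjusted p = 0.0031. In I/R + ML264 against I/R the log2 fold change was 0.90 ± 0.16 (SE), the highest of all members, with edgeR adjusted p = 0.052, and against Sham it was -0.03 ± 0.16 (SE).

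Zfp738, in the same run of genes on chromosome 13 as Zfp759, had 9.41, 12.2, 11.6 and 9.20 CPM in the Sham libraries, 6.52, 6.33, 7.44 and 6.06 after I/R and 5.36, 7.94, 8.69 and 7.76 with ML264. Here the treated libraries stayed below all Sham libraries and overlapped I/R. The log2 fold change of I/R against Sham was -0.69 ± 0.16 (SE), edgeR adjusted p = 0.0138. Zfp873 on chromosome 10 had the same adjusted p to this precision, with 6.59 ± 0.34 CPM in Sham and 3.62 ± 0.72 in I/R (SD, n = 4).

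Zfp950 on chromosome 19, the most abundant of these 10 genes by CPM and TPM, had 34.8, 31.3, 38.3 and 35.5 CPM in the Sham libraries, 21.3, 23.8, 25.7 and 21.4 after I/R and 28.7, 21.2, 30.4 and 27.5 with ML264. Treated library 2 was as low as the I/R libraries and the other 3 lay between the groups. Its log2 fold change in I/R against Sham was -0.60 ± 0.11 (SE), edgeR adjusted p = 0.00503. Zfp60 on chromosome 7 showed the same low treated library 2, with 21.2, 23.9, 22.1 and 22.9 CPM in the Sham libraries, 12, 14.3, 15 and 14.8 after I/R and 21.0, 12.4, 22.6 and 15.7 with ML264. It differed by a log2 fold change of -0.68 ± 0.15 (SE), edgeR adjusted p = 0.0121. Its promoter holds the overlapping CACCC boxes printed above.

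Zfp606 on chromosome 7 had 13.3, 18.0, 14.8 and 13.7 CPM in the Sham libraries, 11, 6.57, 7.40 and 8.09 after I/R and 8.02, 7.81, 10.9 and 10.6 with ML264. Both injured groups lay entirely below Sham. The log2 fold change was -0.86 ± 0.17 (SE) in I/R against Sham (edgeR adjusted p = 0.00641) and -0.68 ± 0.17 in I/R + ML264 against Sham (edgeR adjusted p = 0.0993). Zfp426 on chromosome 9, next to Zfp266, had 14, 16.6, 15.6 and 13.6 CPM in the Sham libraries, 10.4, 11.4, 10.4 and 9.96 after I/R and 11.6, 12.5, 15 and 12.8 with ML264. The I/R libraries were close to each other and below all libraries of both other groups. Its log2 fold change was -0.50 ± 0.11 (SE), edgeR adjusted p = 0.0125.

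Zfp287 on chromosome 11 was the only one of the 10 without the KRAB pattern. It had 7.69, 8.0, 6.91 and 6.87 CPM in the Sham libraries, 4.10, 5.39, 4.14 and 3.22 after I/R and 5.11, 4.29, 5.92 and 6.13 with ML264, with both injured groups entirely below Sham. Its log2 fold change was -0.81 ± 0.17 (SE), edgeR adjusted p = 0.00898. Zfp90, a KRAB gene on chromosome 8 (106415327 to 106426598, plus strand), had 10.5, 14.6, 15.4 and 12.9 CPM in the Sham libraries, 9.37, 7.82, 7.52 and 7.49 after I/R and 8.94, 7.13, 7.91 and 8.20 with ML264. The injured groups overlapped each other and lay below Sham. The log2 fold change was -0.73 ± 0.14 (SE) against Sham both in I/R (edgeR adjusted p = 0.00528) and in I/R + ML264 (edgeR adjusted p = 0.0308). Of its words, 77.9% are shared, mainly with the antisense gene Gm26786, so reads of the shared part cannot be told apart and the value is uncertain.

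All 10 of these calls held in each fit that left out 1 library. With the Y-linked covariate the calls of Zfp287, Zfp426, Zfp60 and Zfp738 ended, with the Arntl covariate those of Zfp426 and Zfp738, and in the libraries with Y-linked transcripts those of Zfp287, Zfp426 and Zfp738.

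**Figure D3:**
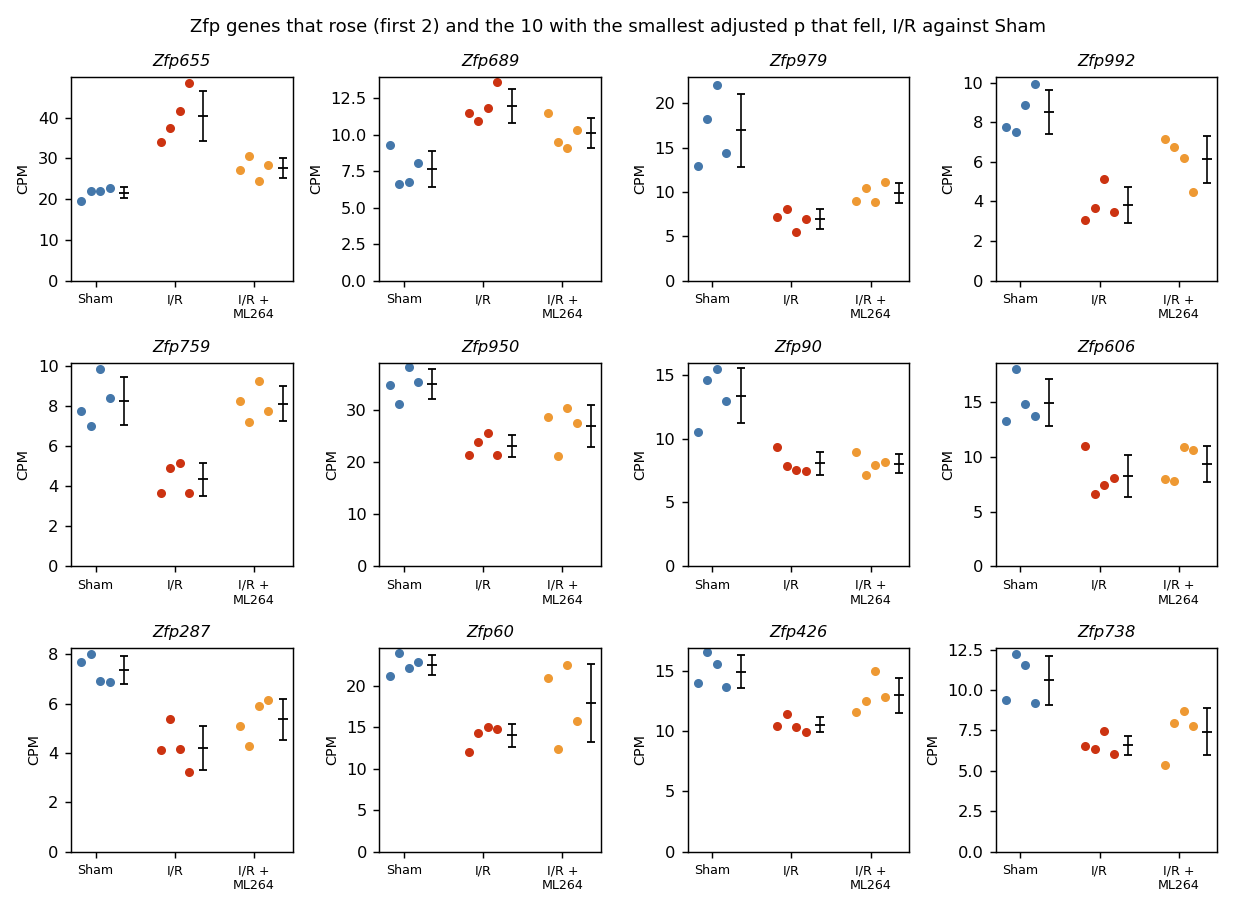
CPM per library (y axis, from 0) of the 2 Zfp genes that rose and the 10 with the smallest adjusted p that fell in I/R against Sham, with points for libraries in order of number and bars for the group mean ± SD (n = 4). In all 12 panels the Sham and I/R points do not overlap, which the choice of genes by this contrast favours. In Zfp759 the I/R + ML264 points lie in the range of Sham, from 6.99 to 9.83, at 7.17 to 9.23.

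The other 21 members that fell had log2 fold changes of -0.86 to -0.32, with a median of -0.56. They include Zfp451, a SUMO ligase, at 39.6 ± 3.97 CPM in the Sham libraries, 30.2 ± 2.93 after I/R and 31.8 ± 3.11 with ML264 (SD, n = 4). Its log2 fold change in I/R against Sham was -0.39 ± 0.10 (SE), edgeR adjusted p = 0.0252. Zfp266, a KRAB factor known as a barrier to reprogramming of cells to pluripotency, had 39.5 ± 2.07, 31.7 ± 2.55 and 35.4 ± 3.93 CPM in the 3 groups. It had the smallest change of all called members, -0.32 ± 0.09 (SE), edgeR adjusted p = 0.0449. The remaining KRAB genes of this group were Zfp873, Zfp825, Zfp866, Zfp141, Zfp719, Zfp369, Zfp799, Zfp994, Zfp952, Zfp81, Zfp715, Zfp157, Zfp976 and Zfp169, and those without the pattern were Zfp397, Zfp142, Zfp422, Zfp608 and Zfp180. These names complete the set of 31 and were taken after their values were seen.

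**Figure D4:**
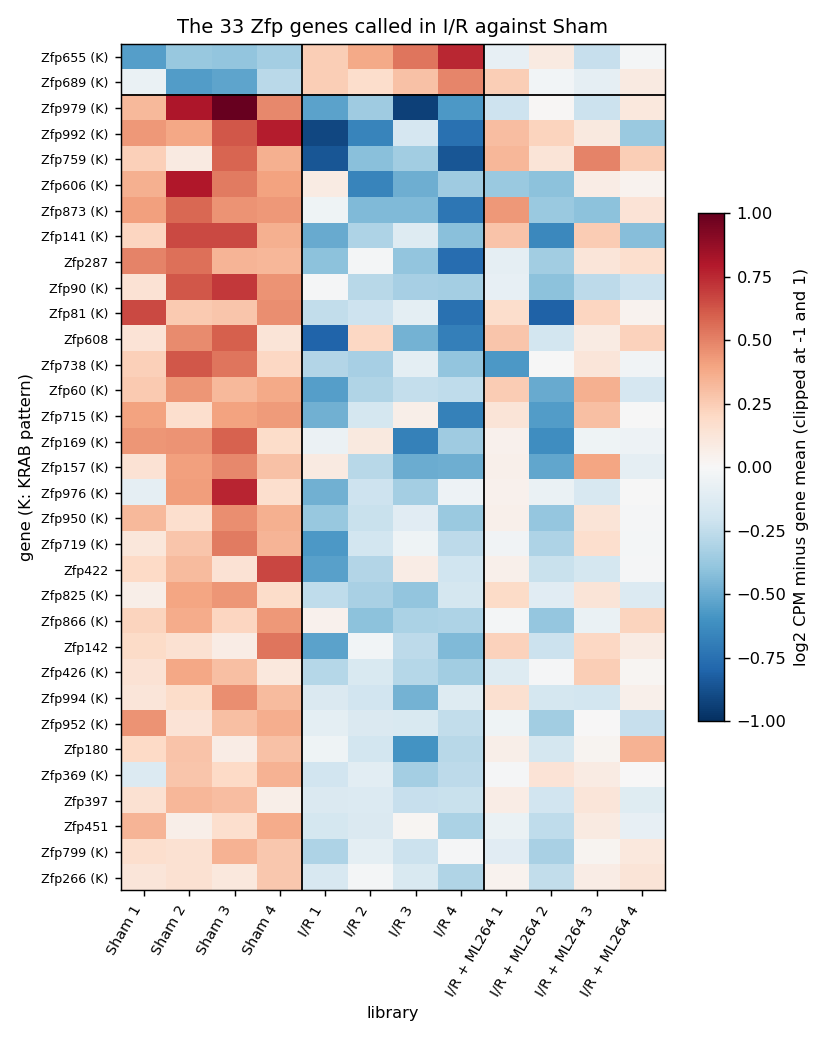
Log2 CPM minus the gene's mean (colour, limited to -1 and 1) for the 33 Zfp genes called in I/R against Sham (rows, K for a KRAB pattern) in the 12 libraries (columns). On average Sham is high and I/R low in the 31 genes below the line, which their choice fixes. The first 2 genes show the opposite. I/R + ML264 library 2 is lower than the other treated libraries on average, at -0.27 over the 31.

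Zfp655 and Zfp689, both KRAB genes, rose. Zfp655, first described as a partner of the signalling protein Vav1, lies on chromosome 5 (145231715 to 145247302, plus strand) and has no shared words. It had 19.6, 22.1, 21.9 and 22.7 CPM in the Sham libraries, 34.1, 37.3, 41.6 and 48.5 after I/R and 27.2, 30.5, 24.5 and 28.4 with ML264. The 3 groups did not overlap, with I/R highest and the treated libraries in the middle. The log2 fold change was 0.90 ± 0.11 (SE) in I/R against Sham (edgeR adjusted p = 0.000306) and -0.55 ± 0.11 in I/R + ML264 against I/R (edgeR adjusted p = 0.084). Against Sham, the treated libraries had 0.36 ± 0.11 (edgeR adjusted p = 0.165).

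Zfp689 on chromosome 7 (127442136 to 127449158, minus strand) had 9.27, 6.59, 6.74 and 8.03 CPM in the Sham libraries, 11.5, 10.9, 11.9 and 13.6 after I/R and 11.5, 9.52, 9.11 and 10.3 with ML264. I/R lay above Sham without overlap, and the treated libraries overlapped both. The log2 fold change was 0.65 ± 0.13 (SE), edgeR adjusted p = 0.00898, and this call ended in the 8 libraries with Y-linked transcripts. Zfp689 overlaps the antisense gene B130055M24Rik, so the strand of its reads is not known. It sits among Zfp768, Zfp629 and Zfp646, which had log2 fold changes below 0. Non-overlap upward without a call was seen in Zfp644 (log2 fold change 0.21), Zfp869 (0.42) and Zfp91 (0.12), named after their values were seen.

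Position in the genome was read from GENCODE M21 on GRCm38. Chromosome 7 holds 41 members, of which 7 fell, near the 17.0% of all members. Of the 11 members on chromosome 13, 5 fell, and of the 13 on chromosome 2, none. Runs of 4 or more members with gaps of at most 1000000 bases numbered 12 and held 65 members. The median log2 fold change of I/R against Sham was below 0 in all 12 runs, 55 of the 65 members were below 0, and 14 were called lower. In 5 of the runs no member was called lower, among them 9 members on chromosome 7 from 29768552 to 30169750, with a median of -0.22. On chromosome 7, from 41633203 to 43593235, 4 of 6 members fell with a median of -0.59, and all 6 were below 0. On chromosome 17, from 32765496 to 33394641, 3 of 6 fell with a median of -0.39, and on chromosome 13, from 67121660 to 67729173, 2 of 5 fell with a median of -0.63. Neighbours can share sequence, and then their values are not independent.

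**Figure D5:**
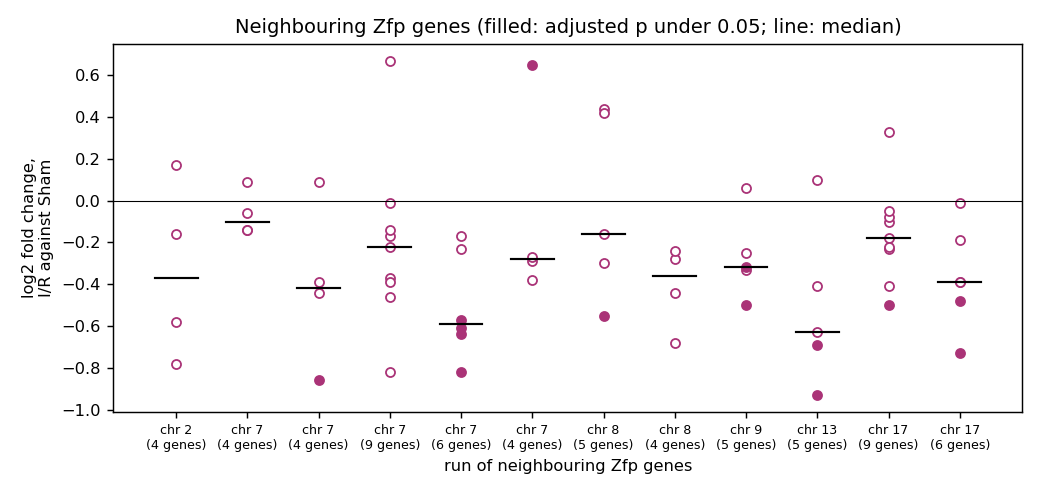
Log2 fold change of I/R against Sham (y axis) for each Zfp gene in the 12 runs of 4 or more neighbouring Zfp genes (x axis, by chromosome), filled where edgeR's adjusted p was under 0.05, with a line at the median. The median lies below 0 in every run, from -0.63 to -0.10, with genes above 0 in 9 runs.

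Across the 182 genes, the log2 fold change of I/R against Sham had a Spearman correlation of -0.24 with the number of finger patterns, -0.20 with the share of shared words, 0.03 with mRNA length and 0.26 with mean CPM (Pearson -0.18, -0.24, 0.03 and 0.10). These are correlations across genes of the same libraries, and genes are not independent replicates. By number of fingers, 5 of 51 members with 7 or fewer fell (median -0.06), 15 of 88 with 8 to 14 (-0.28) and 11 of 43 with 15 or more (-0.28). Among the 25 members with over 25% shared words 8 fell (median -0.50), and among the other 157 members 23 fell (-0.18).

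Genes near the pathway and in other zinc finger series were read in the same fit. Of 155 Zfp genes below the level limit that could be tested, 20 fell (12.9%) and 1 rose, with a median of -0.49, where 2.4% of all 7677 genes tested below that level fell, with a median of -0.03. For the lists that follow, 3.17% of all 15952 genes tested fell and 4.58% rose, with a median of 0.00. Of 20 Zscan and Zkscan genes, whose proteins carry a SCAN domain beside the fingers, 4 fell (20%), with a median of -0.21. Zbtb genes, with a BTB domain in place of KRAB, fell in 4 and rose in 4 of 38 cases, with a median of -0.02. Zc3h genes, whose fingers bind RNA, rose in 2 of 16 cases, with a median of 0.12.

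Of 34 tested corepressor and heterochromatin genes, 1 rose (2.94%) and 2 fell (5.88%), with a median of -0.07. Over all 15952 genes tested, 4.58% rose and 3.17% fell, so such small counts lie near those shares. Trim28, the corepressor that KRAB domains bind, had a log2 fold change of 0.03 ± 0.15 (SE) and Setdb1, its methyltransferase partner, -0.22 ± 0.15. Fam208a, a subunit of the HUSH silencing complex, fell (-0.38 ± 0.08, edgeR adjusted p = 0.00933), as did Atf7ip, the partner of SETDB1 (-0.27 ± 0.07, edgeR adjusted p = 0.0304). Kdm1a, a histone demethylase, rose (0.48 ± 0.12, edgeR adjusted p = 0.0272). Neither Trim28 nor Setdb1 passed the test in any of the 3 comparisons.

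Few cell type markers were called in the same contrast. Over all 15952 genes tested, 4.58% rose and 3.17% fell, and so few calls in short lists cannot be set apart from those shares. Of the 6 cardiomyocyte markers, 1 rose and none fell. Neutrophil markers summed to 4.65 to 7.16 CPM in Sham and 7.54 to 17.0 CPM in I/R (1 of 4 tested rose), endothelial markers to 386 to 484 and 334 to 385 CPM (1 of 6 fell), and macrophage markers to 93.1 to 161 and 87.8 to 110 CPM (1 of 6 fell). Platelet markers reached 14.9 CPM in Sham and 139 CPM in I/R but overlapped, as did the lists for the other cell types. Their part in the fall of the Zfp genes was not tested.

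Members with a described role in the heart, in stress or in chromatin were in most cases not called. Of 28 such genes listed, 20 were members, and Zfp266 was the 1 called in I/R against Sham. Over the 8275 genes at the same mean level 3.88% fell and 6.2% rose, so 1 of 20 lies near those shares. Zfp260, a cardiac effector of alpha-1 adrenergic signalling, had 35.3, 35.2, 35.5 and 38.4 CPM in the Sham libraries, 32.2, 32.2, 32.4 and 26.9 after I/R and 33, 34.3, 31.5 and 32.3 with ML264. Both injured groups lay below Sham without overlap, but the log2 fold change of -0.22 ± 0.08 (SE) in I/R against Sham did not pass (edgeR adjusted p = 0.101). Zfp697, an RNA-binding regulator of muscle regeneration, had 16.7, 14.4, 14.2 and 16 CPM in Sham and 13.0, 10.7, 11.1 and 8.54 in I/R, with -0.50 ± 0.16 (SE) and edgeR adjusted p = 0.0609. Zfp346, which binds double-stranded RNA, had 13.7 ± 2.05 CPM in Sham and 9.27 ± 1.95 in I/R (SD, n = 4), with edgeR adjusted p = 0.0744.

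Regulators of imprinting and retroviral silencing are the best-studied KRAB proteins of the series. Zfp568, which silences a placental transcript of Igf2, had 31.1 ± 8.60 CPM in the Sham libraries, 49.4 ± 10.3 after I/R and 35.2 ± 7.60 with ML264 (SD, n = 4), and its 0.67 ± 0.23 (SE) log2 change did not pass (edgeR adjusted p = 0.104). Zfp809, which recognises retroviral primer binding sites, had -0.24 ± 0.15, and Zfp445 had 0.11 ± 0.16. Zfp57, the other imprint keeper, was below the level limit at a mean of 1.37 CPM, and the pluripotency gene Zfp42 at 0.13 CPM. Zfp418, reported in cardiac hypertrophy, had 12 ± 1.22, 10.9 ± 0.93 and 12.7 ± 1.92 CPM in the 3 groups, with -0.14 ± 0.13 (SE) in I/R against Sham.

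The listed factors without a KRAB pattern given here were not called. In I/R against Sham, the log2 fold change was -0.07 ± 0.08 (SE) for the GC-rich sequence binder Zfp148 and 0.16 ± 0.12 for its relative Zfp281. It was -0.25 ± 0.13 for Zfp143, a factor of small nuclear RNA promoters, 0.09 ± 0.13 for the progenitor cell factor Zfp521, and 0.05 ± 0.11 for Zfp609. The ubiquitin ligase Zfp91, which acts in noncanonical NF-kB signalling, had 70.2, 68.7, 68.4 and 71.2 CPM in Sham and 72.7, 81.5, 73.7 and 73.7 in I/R, apart but with a log2 fold change of only 0.12 ± 0.06 (SE, edgeR adjusted p = 0.306). Zfp207 (-0.04), Zfp335 (0.23), Zfp384 (-0.05), Zfp326 (0.03) and Zfp638 (0.05) were not called. The abundant members without the pattern had 0.00 for Zfp106, 0.21 for Zfp644, -0.15 for Zfp292 and -0.21 for Zfp652, and those with it -0.19 for Zfp871 and 0.11 for Zfp445.

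The effect of ML264 was read within the injured hearts, as I/R + ML264 against I/R. No member was called in either direction by edgeR (25, or 13.7%, at an unadjusted p under 0.05, against 12.1% of the 8275 genes), where 0.0242% of the 8275 genes were called higher and 0.0725% lower. DESeq2 called 1 higher, Zfp759, and 1 lower, Zfp655. The members' median log2 fold change was 0.07, with 116 above 0 and 66 below, against -0.01 over the 8275 genes; for KRAB members it was 0.13 and for the others 0.04. The treated libraries lay entirely above I/R in 9 members and entirely below in 3, where the shares over all genes were 2.77% and 3.96%. Those above were Zfp101, Zfp369, Zfp426, Zfp488, Zfp759, Zfp825, Zfp92, Zfp933 and Zfp979, and those below were Zfp655, Zfp68 and Zfp865, named after their values were seen. Without treated library 2, Zfp759 and Zfp655 were each called.

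Injured hearts with ML264 were last set against Sham hearts. Only Zfp90 passed in edgeR, lower. No member passed higher, and 44 (24.2%) had an unadjusted p under 0.05 in either direction, against 15.3% of the 8275 genes. DESeq2 called Zfp488 higher and 6 members lower, Zfp182, Zfp329, Zfp606, Zfp90, Zfp952 and Zfp979. By edgeR, 0.0363% of the 8275 genes were called lower and 0.338% higher. These shares do not apply to the DESeq2 calls, for which no share over all genes is given here. The call of Zfp90 ended without Sham library 2, 3 or 4 or treated library 2 or 4, and with the Y-linked or the Arntl covariate. The median over members was -0.14, with 135 below 0, and -0.19 over KRAB members, against 0.01 over the 8275 genes. Treated libraries lay entirely below Sham in 22 members (12.1%) and above in 3, where all genes gave 3.73% and 4.82%.

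For the 31 genes that fell in I/R, the values of the 3 comparisons stand side by side as follows; they share the same I/R and Sham libraries and are not independent. The median log2 fold change was -0.61 for I/R against Sham, which the choice of these genes fixes, then 0.26 with ML264 relative to I/R and -0.36 with ML264 relative to Sham. Genes chosen for low I/R and high Sham values tend to lie above those I/R libraries and below those Sham libraries in any other group. Nothing is therefore read from the second or the third value, nor from the treated levels of these genes. Treated against I/R, 30 were above 0 and Zfp90 was at -0.00. Against Sham, all 31 were below 0, from -0.78 to -0.03. The mean centred level of the 31 was 0.24 to 0.42 in the Sham libraries and -0.39 to -0.22 in I/R, and 0.05, -0.27, 0.07 and -0.00 in treated libraries 1 to 4. Library 2 alone was in the I/R range.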

How the data were processed

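The authors deposited 1 table of estimated counts per transcript for all 12 libraries, without normalization. The tools behind it were FastQC and kallisto on GRCm38 (mm10), per the submitters' processing notes; their versions and the annotation were not given in the sources used here. Per the labels' protocols, the Nextera XT kit was used on cDNA, which does not mark strand, and reads were paired.

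From that table, the 104952 transcript estimates were summed per gene symbol and rounded. Members were chosen on CPM of the plain library total, while CPM values in the text are scaled by TMM factors. The 3 comparisons were fitted together on the 12 libraries by edgeR 4.0.16 under R 4.3.3 (TMM factors, filterByExpr at its minimum of 10 counts, robust quasi-likelihood F-test), and p was adjusted by Benjamini-Hochberg over all 15952 genes tested; called means under 0.05. All 182 members were tested. TPM was computed from transcript lengths. The script was tested on simulated counts. Total counts of 22.26 to 29.93 M set the precision of low genes, and the coefficient of variation between libraries was 0.205.

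Positions, coding sequences and 31-base words came from GENCODE M21, which held 98.6% of the transcripts by identifier. The KRAB pattern and finger patterns were searched in the translated coding sequences, so a gene without the pattern may still hold a degenerate domain. Named are members called (the 10 with the smallest adjusted p where over 10 moved one way), the 6 with the highest mean CPM, the 2 on each side of the level limit, and members of a list of 28 genes with known roles. The members, gene lists and tests were chosen with earlier results of these data known. Alternatives used DESeq2 1.42.0, limma 3.58.1 (voom), other scalings and filters, covariates, and each library left out. Sums over protein-coding transcripts alone and the 8 libraries with Y-linked transcripts were added after the data were seen.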

Additional observations from a re-analysis of the deposited data

Results flagged for a closer look

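In 6 of 123 groups of 4 libraries checked (114 from the named members and 9 from the mean levels of 3 sets of Zfp genes), 1 library lay far from the other 3, where chance gives about 1 in 20. Zfp260, the adrenergic effector, stood at 38.4 CPM in Sham library 4 (35.2 to 35.5 in the others) and at 26.9 CPM in I/R library 4 (32.2 to 32.4). I/R library 4 was also low for Zfp346, at 6.36 CPM (10.0 to 10.5), and for Zfp638, at 70.5 CPM (83.6 to 85.5). I/R library 1 was high for Zfp652, at 98.9 CPM (78.7 to 81.7). I/R library 2 was high for Zfp91, at 81.5 CPM (72.7 to 73.7). None of these 5 genes was called in any comparison.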

How the results depend on the processing

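For I/R against Sham, the count of members that fell was 31 and stayed within 1.5 times of that under DESeq2 (46), with RLE (32) or upper-quartile (43) scaling, unfiltered (30), with a 1 CPM filter (35), only the groups compared (45), voom (37) and no mitochondrially encoded genes (32). It was 8 with the Y-linked covariate, 13 with the Arntl covariate, 13 in the libraries with Y-linked transcripts, 0 with protein-coding transcripts alone, and 14 to 44 with 1 library left out. Protein-coding transcripts alone gave a median of -0.29 and 0 members higher, and the libraries with Y-linked transcripts 1 higher. The direction of the median turned in no setting, and 29 of the 31 were below 0 in every fit. For I/R + ML264 against I/R, 1 member was higher under DESeq2, RLE and upper-quartile factors, both other filters and the Y-linked covariate, and 1 lower under DESeq2 and no filter; leaving out 1 library gave 0 to 1 in each direction. For I/R + ML264 against Sham, DESeq2 called 1 higher and 6 lower and no filter 3 lower. In that comparison 0 were lower with only the groups compared, either covariate, protein-coding transcripts alone or the libraries with Y-linked transcripts, and 0 to 2 with 1 library left out. The cause of these changes was not tested.

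Same-numbered libraries of different groups showed no clear shared deviation (correlations -0.11 to 0.0971 over 12 pairs). The labels name no pairing, and these correlations cannot exclude one, since a weak pairing could be missed with 4 libraries a group. With the replicate number as a block, 25 members fell in I/R against Sham and 0 in I/R + ML264 against Sham. A missed call in a member near 5 CPM does not show that it stayed the same. Of members under 10 CPM, 17.9% were called lower in I/R against Sham. The share was 18.3% at 10 to 20 CPM and 13.6% at 20 CPM or more. Over all genes tested it was 4.45% at 5 to 10 CPM, 4.49% at 10 to 20 CPM and 3.07% at 20 CPM or more.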
